A study of Arabidopsis thaliana with 12 samples.

Results

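The introns described here are the plain introns of 300 nt or more that were listed as differing in retention between groups of Arabidopsis thaliana seedlings. They are the features of class I with that length in the 3 deposited splicing tables. These were 1147 of 6244 listed features for rrc1-3 against Col-0 in the dark, 1041 of 6003 for rrc1-3 against Col-0 in red light, and 158 of 843 for red light against dark within rrc1-3. In all, 1779 of 10388 distinct listed features were long plain introns. The choice used the class and the length, not a measured value. The tables, however, hold only features that the authors found to differ at a false discovery rate under 0.05 and by a fraction of at least 0.03, so each count of differing introns is a description of those lists.

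The libraries were made from rRNA-depleted total RNA of seedlings, with 3 libraries in each of 4 groups: rrc1-3 under red light, rrc1-3 without light, Col-0 under red light and Col-0 without light. rrc1-3 is a single mutant line with an altered RRC1 gene in the Col-0 background, and Col-0 is the wild type. All seedlings were kept for 4 days in darkness, and the red light groups then received red light of 7 µmol per square metre per second for 3 h before collection. The labels do not say that the 3 libraries of a group came from separate cultures, so p-values measure only the spread between these libraries, which may be technical. The design asked how splicing differed between the mutant and the wild type in each condition.

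An intron is removed when the spliceosome joins its 5′ splice site, at the upstream exon, to its 3′ splice site, at the downstream exon. A retained intron stays in the transcript, and in plants retention is a common form of alternative splicing. RRC1 is a serine/arginine-rich-like splicing factor named for the reduced red light responses of its mutants, and it acts with the splicing factor SFPS downstream of phytochrome B, the main red light receptor of seedlings. Most Arabidopsis introns are short, and the long ones lie more often near the start of the gene, in the 5′ UTR or as the first intron of the coding region. Of 131240 annotated introns of protein-coding genes in the reference, 17397 (13.3%) were 300 nt or longer, and 1725 of the introns described here matched one of them.

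Each intron has reads that cross its boundary with the upstream exon, reads that cross its boundary with the downstream exon, and spliced reads that join the exons. Splice sites of the introns on which the results turn are given here on the TAIR10 build. Capitals mark the last 3 bases of the upstream exon and the first 3 bases of the downstream exon. Lower case marks the first 13 and the last 20 bases of the intron, 5′ to 3′ on the transcribed strand. RRC1 is the mutated gene, TZP, PIF3, AFC2, RS31 and TOC1 gained reads mainly at the 3′ splice site, FIP1[V] lost reads at the 5′ splice site, PUP1 was among the largest falls in both conditions, and AT1G58602 holds the longest intron.
RRC1 intron 15 of 16, chr5:8634834-8635302, minus strand, 5′ splice site: AAGgtatgatcaatgc
RRC1 intron 15 of 16, 3′ splice site: tctgttttttgttactgcagACA
TZP intron 1 of 6, chr5:17526860-17527240, plus strand, 5′ splice site: GAGgtaatttatggtt
TZP intron 1 of 6, 3′ splice site: tctggttctttatgtctcagGGT
PIF3 intron 2 of 7, chr1:3076809-3077172, plus strand, 5′ splice site: CAGgtcagctacgatg
PIF3 intron 2 of 7, 3′ splice site: ttatgaattcacctttttagGAT
AFC2 intron 1 of 10, chr4:12756935-12757551, minus strand, 5′ splice site: AAGgtataaattctct
AFC2 intron 1 of 10, 3′ splice site: tggtacatgaatatgtgtagGCT
RS31 intron 2 of 5, chr3:22901256-22902053, minus strand, 5′ splice site: CTGgtaaagtgtcttc
RS31 intron 2 of 5, 3′ splice site: tgtgctttcttttgttgcagGAT
TOC1 intron 1 of 5, chr5:24675673-24675989, plus strand, 5′ splice site: AAGgtatgatttatag
TOC1 intron 1 of 5, 3′ splice site: ttattctttttggaatgcagTGA
FIP1[V] intron 1 of 7, chr5:23489633-23490160, plus strand, 5′ splice site: AAGgtcagtgtcgatg
FIP1[V] intron 1 of 7, 3′ splice site: tacatatatttttcttgcagTAT
PUP1 intron 1 of 1, chr1:9862563-9863846, minus strand, 5′ splice site: AAGgtaagaaatttac
PUP1 intron 1 of 1, 3′ splice site: tcatcatacatgttttgtagGTG
AT1G58602 intron 1 of 8, chr1:21746500-21753883, plus strand, 5′ splice site: AAGgttagtcattttt
AT1G58602 intron 1 of 8, 3′ splice site: gtatattttgttgtccacagAAA

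Retention is given per library as the mean of the reads at both boundaries, in percent of that mean plus the spliced reads. The long introns had a median length of 437 nt in the dark table, 434 nt in the red light table and 514 nt in the light response table, and the longest had 7384 nt. Summed over these introns a library held 271437 to 354166 reads for the dark comparison, 540732 to 949721 for the red light comparison, which includes 6 introns of the plastid genome, and 44235 to 69754 for the light response. The median intron had 163.5, 171.0 and 295.3 reads per library in these tables, and 16, 16 and 3 introns had a mean under 20. Introns with few reads have retention values that move in coarse steps, which a single library can decide.

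The mutated gene itself held a member of the set. Intron 15 of RRC1, 469 nt long and between coding exons, was retained at 88.6%, 98.4% and 89.9% in rrc1-3 in the dark, against 3.46%, 4.95% and 3.24% in Col-0. Its retention in red light was 97.6%, 93.2% and 88.7% in rrc1-3, against 0.602%, 3.60% and 4.74% in Col-0. The groups did not overlap in either condition. The log2 odds of retention were higher in rrc1-3 by 8.27 ± 0.44 (SE) in the dark (edgeR, adjusted p = 1.58e-11) and by 8.68 ± 0.49 in red light (edgeR, adjusted p = 2.26e-09).

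In the dark, long introns moved in both directions, and in red light more of them were retained in the mutant. In the dark 592 of 1147 long introns passed the edgeR test, against 53.7% of all listed features. Of these 282 were higher in rrc1-3 (26.1% of all features) and 310 lower (27.6%). In red light 573 of 1041 passed, against 57.5% of all features, with 401 higher (36.7%) and 172 lower (20.8%). In the light response within rrc1-3, 117 of 158 passed, against 86.7% of all features, with 93 higher in red light (63.7%) and 24 lower (23.0%). In both genotype tables these shares are near those of all listed features. In the light response 74.1% of the long introns were called, a lower share than the 86.7% of all features and the 93.6% of plain introns under 300 nt.

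The balance of calls depended on how the odds were scaled. Scaling the unspliced and the spliced reads apart moved the log2 odds of all features by a median of 0.18 in the dark, -0.12 in red light and -0.58 in the light response. The scaled medians of all features were -0.18, 0.46 and 0.31, so this scaling did not centre the features on no change. With that scaling 358 long introns were called higher and 214 lower in the dark, 345 higher and 213 lower in red light, and 12 higher and 26 lower in the light response. Calls with scaled odds were not counted over all features. Here and below, the scaled counts therefore describe the long introns alone and cannot be read as particular to them. The median log2 odds of the long introns kept their sign, at -0.26 scaled and -0.43 unscaled in the dark, 0.52 and 0.64 in red light, and 0.17 and 0.76 in the light response. Unscaled, the median difference over long introns was -3.18 percentage points in the dark, 3.96 points in red light and 4.08 points in the light response, beside -3.05, 3.79 and 4.41 points over all listed features. The 3 and 3 libraries did not overlap for 348 higher and 390 lower long introns in the dark, where 31.4% and 32.6% of all features did so. In red light they did not overlap for 459 higher and 221 lower (42.9% and 24.3% of all features), and in the light response for 97 higher and 23 lower (63.6% and 22.2%).

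The place of the intron in the gene went with its direction. Of long introns in the 5′ UTR, the transcribed part before the start codon, 279 of 342 (81.6%) were retained more in rrc1-3 than in Col-0 in the dark, and 303 of 336 (90.2%) in red light. Of long introns between coding exons, 216 of 736 (29.3%) were retained more in rrc1-3 in the dark and 311 of 628 (49.5%) in red light. Over all listed features the shares retained more in rrc1-3 were 45.1% (2813 of 6244) and 56.5% (3392 of 6003). Of these features 358 and 351 lacked a retention value in at least 1 library. A feature without a computable difference counted as not higher, so these 2 shares are lower limits. The median difference in the 5′ UTR was 5.29 points in the dark and 5.98 points in red light, and between coding exons it was -3.95 and -2.85 points. In the 5′ UTR 153 introns were called higher and 19 lower in the dark, and 196 higher and 13 lower in red light. Between coding exons 123 were called higher and 271 lower in the dark, and 181 higher and 145 lower in red light. With the odds scaled, 194 were called higher and 14 lower in the 5′ UTR in the dark, and 170 and 14 in red light. Between coding exons the scaled counts were 153 higher and 184 lower in the dark, and 154 higher and 182 lower in red light. The balance of calls between coding exons in red light thus turned with the scaling. No scaled share of all features stands beside these counts.

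Per library, the median retention of 5′ UTR introns was 15%, 17.8% and 19.4% in rrc1-3 in the dark, against 11.2%, 11.8% and 11.8% in Col-0. The red light medians were 16.1%, 17.3% and 18.6% in rrc1-3, against 9.36%, 9.66% and 10.4% in Col-0. Every rrc1-3 library lay above every Col-0 library in both conditions. Introns later than the first between coding exons had medians of 7.59%, 8.87% and 9.62% in rrc1-3 in the dark, against 11.9%, 11.4% and 12.9% in Col-0. In red light these later introns had 9.99%, 10.5% and 10.7% in rrc1-3, against 11.3%, 10.9% and 11% in Col-0. Here every rrc1-3 library lay below every Col-0 library, by a small margin in red light. The share retained more in rrc1-3 was 22.8% of later coding introns in the dark and 42.9% in red light, and 42.2% and 61.1% of first introns that lie between coding exons.

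**Figure D1:**
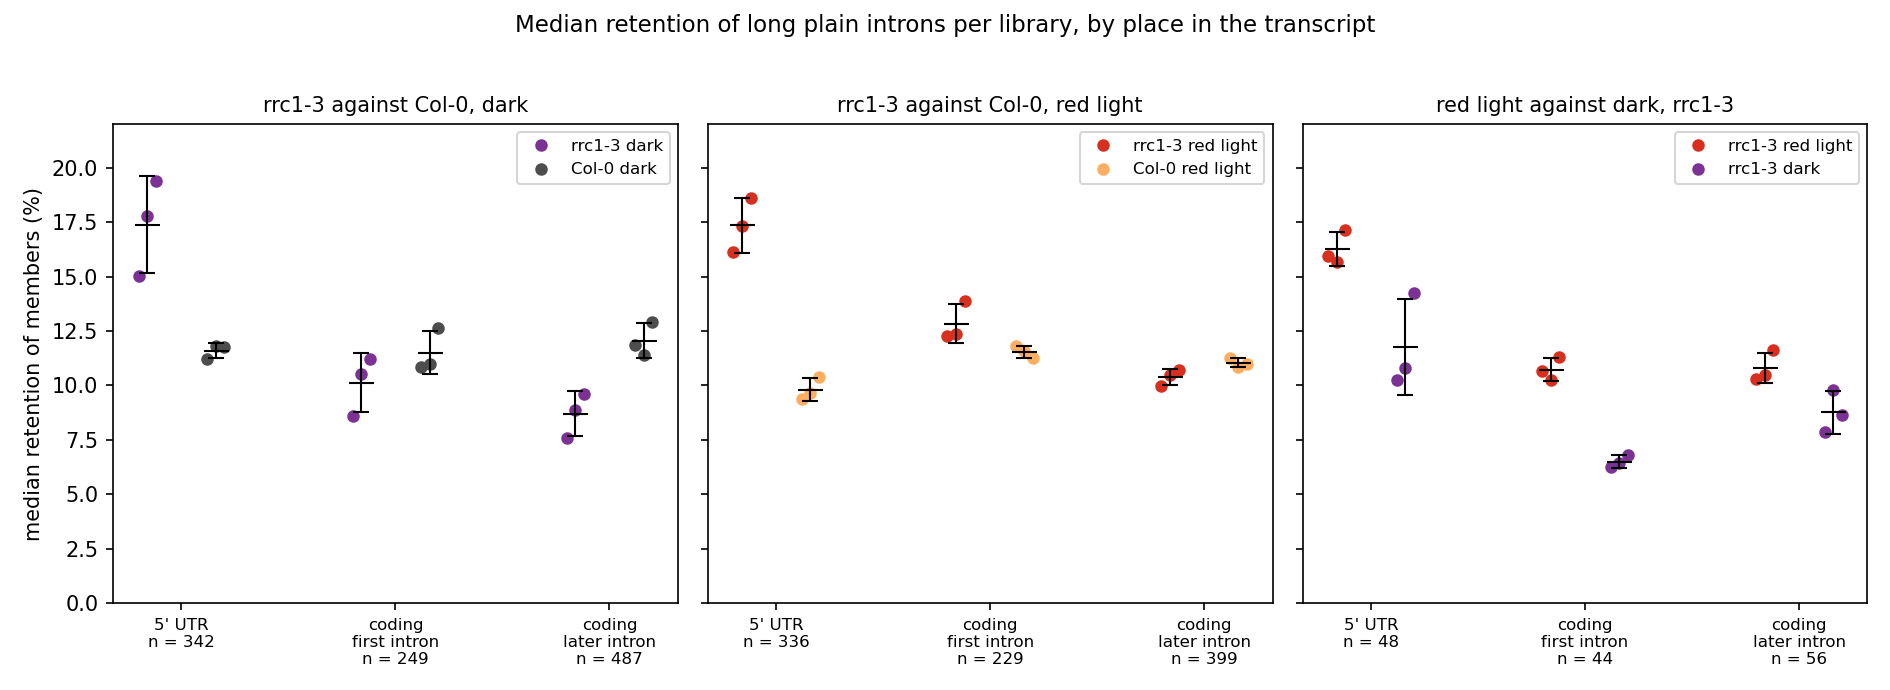
Median retention over long introns (percent, y axis) in each library, for introns of the 5′ UTR, first introns between coding exons and later introns between coding exons, in 3 panels for the dark table, the red light table and the light response of rrc1-3. Points are libraries and bars the mean ± SD of 3. In the 5′ UTR the rrc1-3 libraries lie at 15% to 19.4% in the dark and at 16.1% to 18.6% in red light, above all Col-0 libraries.

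Short introns showed the same order with a smaller gap. Of plain introns under 300 nt, 66.7% of those in the 5′ UTR and 39.4% of those between coding exons were retained more in rrc1-3 in the dark, and 75.7% and 51.4% in red light. Leaving out introns that overlap another gene changed the long introns little, with 81.9% in the 5′ UTR and 28.9% between coding exons in the dark, and 90.4% and 49.6% in red light. Of the long introns, 29.8% in the dark table and 32.5% in the red light table lay in the 5′ UTR. Of all annotated introns of that length 19.1% did so. This excess was not particular to long introns. Of plain introns under 300 nt, 10.1% in the dark table and 11.3% in the red light table lay in the 5′ UTR. Of annotated introns of any length, which include those of 300 nt or more, 6.97% did so. The sizes of the excess in short and in long introns were therefore not compared. Where 1 gene had long introns listed in both places in the dark table, which was so for 16 genes, 7 had more 5′ UTR retention and less coding retention in rrc1-3, and none had the reverse. In 3 genes both places were higher and in 6 both were lower. In red light 4 of 12 such genes had that split, none the reverse, 7 had both places higher and 1 both lower, and the single such gene of the light response had less 5′ UTR and more coding retention in red light than in the dark.

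The direction also followed the distance from the transcript start. In the dark, 82.4% of the long introns at 7 to 254 nt from the start were retained more in rrc1-3, in the nearest of 4 groups of about equal number. The share was 53.0% at 261 to 721 nt, 26.5% at 722 to 1654 nt and 20.8% at 1657 to 22050 nt. In red light the shares were 91.8% at 8 to 232 nt, 73.6% at 233 to 574 nt, 49.2% at 575 to 1563 nt and 36.7% at 1564 to 17332 nt. Among coding introns alone over the same 4 ranges, from near to far, the shares were 77.1%, 38.0%, 24.2% and 19.9% in the dark, and 84.2%, 66.9%, 46.3% and 35.3% in red light. The order by distance was thus also present within coding introns.

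**Figure D2:**
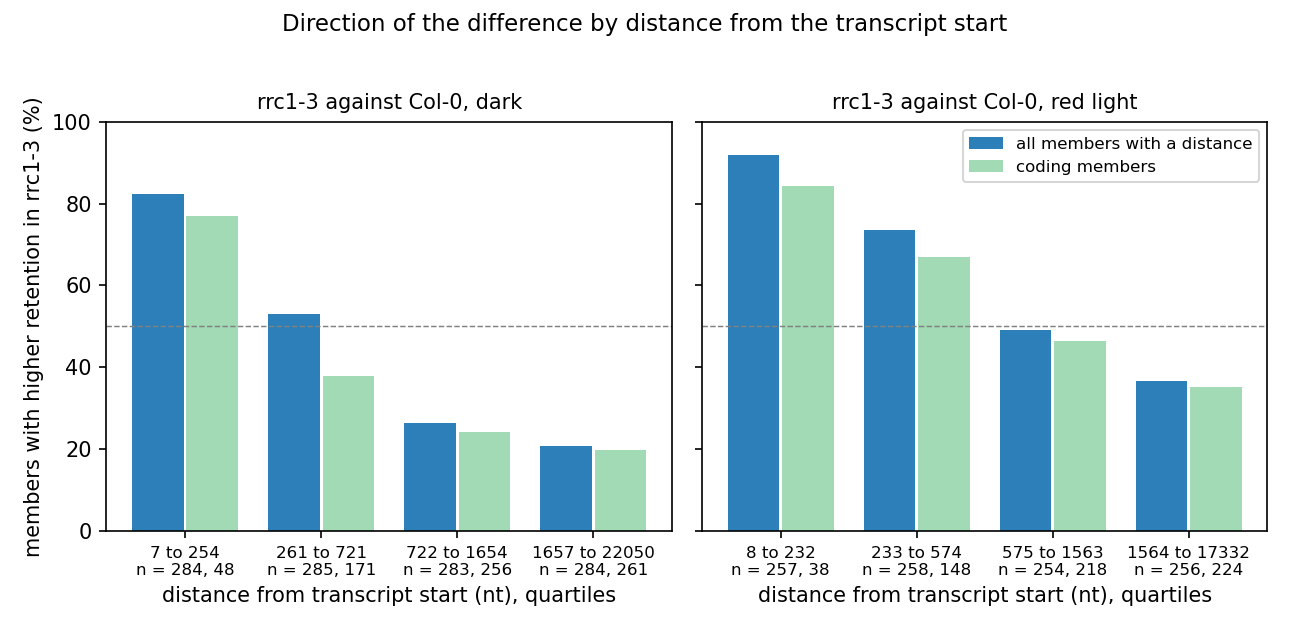
Share of long introns retained more in rrc1-3 than in Col-0 (percent, y axis) in 4 groups of about equal number by genomic distance from the transcript start (nt, x axis), for all long introns and for those between coding exons, in the dark and in red light. The share falls from 82.4% in the nearest group to 20.8% in the farthest in the dark, and from 91.8% to 36.7% in red light.

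Reads at the boundaries changed unequally. In rrc1-3 the balance of boundary reads of long introns shifted toward the 3′ boundary, at the downstream exon. This is a change relative to the 5′ boundary and not a general loss there. From the 5′ boundary alone 56.9% of long introns were retained more in rrc1-3 in red light and 42.5% in the dark. Over all long introns the ratio of reads at the 5′ boundary to reads at the 3′ boundary was 1.02, 0.929 and 0.910 in rrc1-3 in the dark, against 1.20, 1.20 and 1.18 in Col-0. Its values in red light were 0.842, 0.806 and 0.791 in rrc1-3, against 1.1, 1.16 and 1.09 in Col-0. All rrc1-3 libraries lay below all Col-0 libraries, and rrc1-3 library 1 in the dark lay nearest to Col-0. In the 5′ UTR the ratio was 0.631, 0.551 and 0.515 in rrc1-3 in the dark, against 0.820, 0.794 and 0.821 in Col-0, and in red light 0.619, 0.570 and 0.579 in rrc1-3, against 0.922, 0.979 and 0.919 in Col-0.

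A test of the reads at one boundary against those at the other was added after the data were seen. It sets the boundaries against each other and not against the spliced reads, but it uses the same libraries. An intron could be listed through a change at 1 boundary, so the test is not independent of the listing. The test ran on listed introns of any length with a known strand, 5260 in red light and 5572 in the dark, and not on other features. Among red light introns it called 181 of 1035 long introns, against 9.64% of all introns tested. The long introns called were 165 toward the 3′ boundary in rrc1-3 (8.71%) and 16 toward the 5′ boundary (0.932%). In the dark it called 85 of 1146, against 4.13% of all introns tested, 75 toward the 3′ boundary (3.82%) and 10 toward the 5′ boundary (0.305%). The median log2 ratio of 5′ to 3′ boundary reads, rrc1-3 over Col-0, was -0.53 in red light and -0.41 in the dark, beside -0.085 and -0.061 for plain introns under 300 nt. In the 5′ UTR 87 of 336 were called toward the 3′ boundary in red light and 39 of 341 in the dark, with medians of -0.93 and -0.87. Between coding exons 64 of 628 and 29 of 736 were called toward the 3′ boundary, with medians of -0.32 and -0.22.

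The count in the dark rested on single libraries more than the direction did. It was 68 without rrc1-3 replicate 1, 26 without rrc1-3 replicate 2 and 30 without rrc1-3 replicate 3, and 33, 44 and 36 without Col-0 replicates 1, 2 and 3. For red light the count was 178, 99 and 128 without rrc1-3 replicates 1, 2 and 3, and 130, 152 and 109 without Col-0 replicates 1, 2 and 3. With the reads of the 2 boundaries scaled apart, 117 were called toward the 3′ boundary and 28 toward the 5′ boundary in red light, and 51 and 33 in the dark. Of the 494 long introns in both genotype tables, 95 were called toward the 3′ boundary in red light and 51 in the dark, 42 of them in both. Of all listed introns tested, 8.71% were called that way in red light and 3.82% in the dark. Toward the 5′ boundary 12 of the 494 were called in red light (0.932% of all tested) and 4 in the dark (0.305%). Of these 1 was called in both, and none of the 494 was called in opposite directions. Calls in both conditions were not counted over all shared introns, so those counts describe the long introns alone.

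The shift was seen with length. In red light the median log2 ratio was -0.035 for introns of 85 nt or less, -0.060 at 86 to 150 nt, -0.27 at 151 to 299 nt, -0.50 at 300 to 499 nt, -0.60 at 500 to 999 nt and -0.59 at 1000 nt or more. In the dark the medians were 0.016, -0.034, -0.20, -0.38, -0.50 and -0.40 over the same classes. At 1000 nt or more in the dark the ratio of summed reads, 1.08, 1.15 and 1.27 in rrc1-3 against 1.11, 1.1 and 1.04 in Col-0, did not separate the genotypes and was higher in rrc1-3 in 2 of 3 libraries than in any Col-0 library. An annotated transcript start or end of the same gene lay inside 15.3% of the long introns in each genotype table, inside 15.2% of those called toward the 3′ boundary in red light and inside 13.3% in the dark. Without those introns 140 of 877 were called toward the 3′ boundary in red light, with a median of -0.50, and 65 of 971 in the dark, with a median of -0.39. The part of RNA quality in this shift was not tested.

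**Figure D3:**
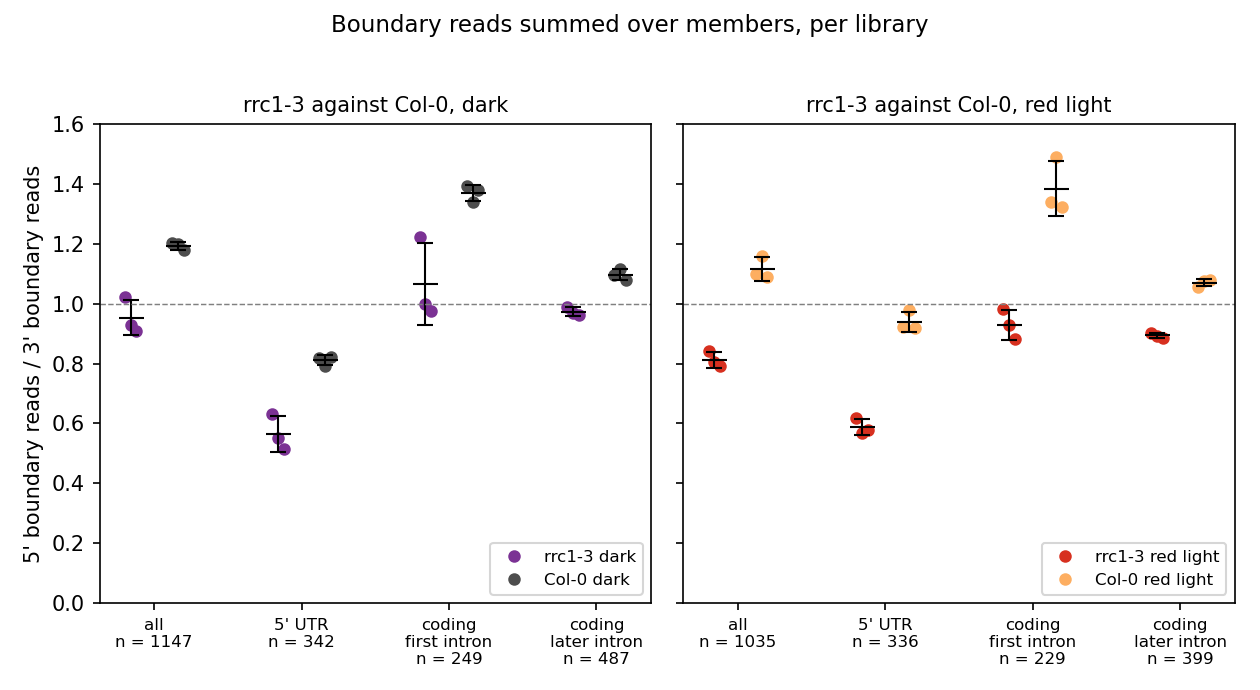
Ratio of reads at the 5′ boundary to reads at the 3′ boundary, summed over long introns (y axis), in each library, for all long introns and by place in the gene, in the dark and in red light. Points are libraries and bars the mean ± SD of 3. For all long introns the rrc1-3 libraries lie at 0.910 to 1.02 in the dark and 0.791 to 0.842 in red light, and the Col-0 libraries at 1.18 to 1.20 and 1.09 to 1.16.

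Of the light signalling list, 2 genes held a long intron. TZP encodes a zinc finger protein that acts in phytochrome signalling. Its 5′ UTR intron of 381 nt was retained at 64.4%, 60.0% and 66.3% in rrc1-3 in red light, against 34.8%, 34.4% and 37.2% in Col-0 (log2 odds 1.67 ± 0.26, edgeR, adjusted p = 0.000128). The groups did not overlap. From the 3′ boundary alone retention averaged 74.7% in rrc1-3 and 33.2% in Col-0, and from the 5′ boundary alone 32.9% and 37.6%. The log2 ratio of its boundaries differed by -2.82 ± 0.29 (edgeR, adjusted p = 1.15e-06). From the 5′ boundary alone its log2 odds were -0.26 (edgeR, adjusted p = 0.571).

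PIF3 is a transcription factor that binds phytochrome and restrains light responses in the dark. Its 5′ UTR intron of 364 nt was retained at 42.4%, 47.2% and 54.0% in rrc1-3 in the dark, against 35.3%, 25.5% and 31.9% in Col-0 (log2 odds 1.04 ± 0.28, edgeR, adjusted p = 0.00594). In red light the intron was retained at 57.4%, 55.6% and 55.8% in rrc1-3, against 48.4%, 48.4% and 35.3% in Col-0 (log2 odds 0.70 ± 0.28, edgeR, adjusted p = 0.0438). The groups did not overlap, but Col-0 replicate 3 in red light lay apart from the other Col-0 libraries. The red light call was lost without that library (log2 odds 0.46, edgeR, adjusted p = 0.19). It was also lost without rrc1-3 replicate 1, 2 or 3 (edgeR, adjusted p = 0.0936, 0.0791 and 0.0696). In red light PIF3 retention from the 3′ boundary averaged 58.8% in rrc1-3 and 37.7% in Col-0, and from the 5′ boundary 53.2% and 49.0%. TZP and PIF3 are of the 35 light signalling genes with a matched locus. Each call was toward more retention in rrc1-3, in 1 of 1 in the dark and 2 of 2 in red light. Of all listed features 26.1% were called higher in the dark and 36.7% in red light, and counts of 1 and 2 are too small to read against those shares. With the odds scaled, the PIF3 call in red light was lost (edgeR, adjusted p = 0.0682).

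Clock genes held 9 long introns in 8 genes, of 27 genes matched. In the dark 3 of 4 were called higher in rrc1-3 and none lower, with a median of 10.1 points, beside 26.1% higher and 27.6% lower of all listed features. In red light 4 of 7 were called higher and none lower, with a median of 5.67 points, beside 36.7% and 20.8%. These counts are too small to read against those shares. With the odds scaled these were 4 higher in the dark, and 4 higher and 1 lower in red light. TOC1, a repressor of morning genes, had its first intron of 317 nt retained at 15.4%, 13.1% and 16.4% in rrc1-3 in red light, against 9.64%, 8.03% and 10.1% in Col-0 (log2 odds 0.78 ± 0.20, edgeR, adjusted p = 0.00462). From the 3′ boundary it averaged 19.1% in rrc1-3 and 8.28% in Col-0, while the 5′ boundary gave 10.3% and 10.2%. LCL1 had a last intron in the 3′ UTR retained at 4.63%, 6.06% and 6.75% in red light, against 2.20%, 2.36% and 3.21% in the dark, within rrc1-3 (log2 odds 1.21 ± 0.22, edgeR, adjusted p = 0.000321).

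RVE2 encodes a MYB factor related to the core clock proteins. Its first intron of 460 nt was retained at 70.3%, 73.4% and 75.9% in rrc1-3 in the dark, against 63.3%, 61.5% and 63.0% in Col-0 (log2 odds 0.70 ± 0.19, edgeR, adjusted p = 0.00674). RVE2 in red light stood at 63.3%, 65.3% and 53.7% in rrc1-3, against 51.6%, 48.1% and 46.7% in Col-0 (log2 odds 0.70 ± 0.21, edgeR, adjusted p = 0.0107). The groups did not overlap, and the red light call was lost without rrc1-3 replicate 2 (log2 odds 0.56, edgeR, adjusted p = 0.0548). Its boundary ratio differed by -1.17 in the dark (edgeR, adjusted p = 0.00701) and by -1.56 in red light (edgeR, adjusted p = 1.55e-06). ELF3, a part of the evening complex, had a coding intron of 1180 nt retained at 31.8%, 31.7% and 40.2% in rrc1-3 in the dark, against 23.2%, 27.9% and 23.6% in Col-0 (log2 odds 0.67 ± 0.23, edgeR, adjusted p = 0.0231). This call was lost without rrc1-3 replicate 3, Col-0 replicate 1 or Col-0 replicate 3 (edgeR, adjusted p = 0.0985, 0.0783 and 0.0594).

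Splicing regulators held long introns of both directions. The list of serine/arginine-rich proteins, which bind exons and help to select splice sites, held 7 long introns in 20 matched genes. In the dark 1 of 4 was called higher in rrc1-3 and 1 lower (26.1% and 27.6% of all features), and in red light 2 of 5 higher and 1 lower (36.7% and 20.8%). RS31 is itself alternatively spliced in response to light. Its coding intron of 798 nt was retained at 48.6%, 53.1% and 56.9% in rrc1-3 in red light, against 25.1%, 24.8% and 30.4% in Col-0 (log2 odds 1.62 ± 0.21, edgeR, adjusted p = 2.11e-05). The 3′ boundary gave 67.4% in rrc1-3 and 33.8% in Col-0, and the 5′ boundary 14.1% and 18.0% (boundary log2 ratio -2.45 ± 0.23, edgeR, adjusted p = 3.31e-07). Neither the 5′ UTR intron of RS41 in red light (58.2 ± 5.0% in rrc1-3, against 50.1 ± 4.8% in Col-0, SD, n = 3; edgeR, adjusted p = 0.0987) nor that of RS2Z33 in the dark (edgeR, adjusted p = 0.342) was called. RS2Z33 had 16.9%, 24.6% and 38.5% in rrc1-3 and 20.2%, 24.2% and 19.8% in Col-0, and its log2 odds were 0.33 ± 0.32 with all libraries and -0.08 without rrc1-3 replicate 3.

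The other spliceosome and RNA-binding genes held 13 long introns in 9 genes, of 32 matched, RRC1 among them. In the dark 3 of 12 were called higher in rrc1-3 and 4 lower (26.1% and 27.6% of all features), and in red light 3 of 7 higher and 3 lower (36.7% and 20.8%). AFC2, listed under the symbol FC2, is a kinase that phosphorylates serine/arginine-rich proteins. Its 5′ UTR intron of 617 nt was retained at 36.9%, 50.9% and 50.7% in rrc1-3 in the dark, against 29.7%, 35.4% and 31.9% in Col-0 (log2 odds 0.84 ± 0.23, edgeR, adjusted p = 0.00669). In red light AFC2 stood at 48.7%, 54.3% and 59.6% in rrc1-3, against 31.8%, 29.3% and 32.7% in Col-0 (log2 odds 1.38 ± 0.20, edgeR, adjusted p = 8.65e-05). In the dark its 3′ boundary gave 56.6% in rrc1-3 and 30.5% in Col-0, and its 5′ boundary 28.7% and 34.1%. The AFC2 groups did not overlap in either condition.

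GRP7, a glycine-rich RNA-binding protein that feeds back on its own splicing, had its intron of 309 nt retained at 23.7%, 27.2% and 29.6% in rrc1-3 in the dark, against 16.8%, 17.6% and 17.5% in Col-0 (log2 odds 0.81 ± 0.14, edgeR, adjusted p = 0.000221). Its red light values were 18.6%, 19.99% and 24.7% in rrc1-3, against 14.2%, 16.5% and 15.9% in Col-0 (edgeR, adjusted p = 0.00978). In the dark the authors' deposited table gave 444.2 FPKM for GRP7 in rrc1-3 and 184.2 FPKM in Col-0. SUA, a splicing factor, had a coding intron at 6.75%, 5.48% and 5.46% in rrc1-3 in the dark, against 7.45%, 12.6% and 15.4% in Col-0 (log2 odds -1.07 ± 0.32, edgeR, adjusted p = 0.0111), and this call was lost without Col-0 replicate 3 (log2 odds -0.82, edgeR, adjusted p = 0.0597). FPA, which controls RNA 3′ end formation, had its first coding intron in red light at 17.8 ± 0.47% in rrc1-3 and 21.7 ± 4.1% in Col-0 (SD, n = 3; edgeR, adjusted p = 0.14). Its boundaries moved in opposite ways, with the 5′ boundary at 24.5% in rrc1-3 and 33.5% in Col-0 and the 3′ boundary at 9.86% and 4.74% (boundary log2 ratio -1.79, edgeR, adjusted p = 0.000175).

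Of 27 matched photosynthesis and chlorophyll genes 1 held a long intron. It lies in AT1G08520, which encodes the D subunit of magnesium chelatase, and it was retained at 6.05%, 6.07% and 4.51% in rrc1-3 in the dark, against 10.1%, 7.54% and 10.1% in Col-0 (log2 odds -0.79 ± 0.25, edgeR, adjusted p = 0.0144). The call was lost without rrc1-3 replicate 3 (edgeR, adjusted p = 0.0597) and without Col-0 replicate 1 (edgeR, adjusted p = 0.0572). None of the 14 matched ubiquitin, actin and related genes held one.

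Other members called for a boundary shift were named after their values were seen. APA1 encodes an aspartic protease. Its 5′ UTR intron of 995 nt was retained at 5.16%, 5.84% and 6.39% in rrc1-3 in red light, against 1.91%, 2.13% and 2.27% in Col-0, with the 3′ boundary at 8.53% and 1.66% and the 5′ boundary at 2.88% and 2.54%. VLN3, an actin-binding villin, had coding intron 20 of 24 retained at 13.1%, 11.9% and 14.7% in rrc1-3 in red light, against 7.09%, 5.73% and 6.47% in Col-0, with the 3′ boundary at 20.7% and 8.71% and the 5′ boundary at 4.15% and 4.03%. FIP1[V], a polyadenylation factor, went the other way in its sum. Its first intron was retained at 16.7%, 18.5% and 21.8% in rrc1-3 in the dark, against 36.9%, 34.1% and 36.1% in Col-0 (log2 odds -1.25 ± 0.23, edgeR, adjusted p = 0.000397). The 5′ boundary gave 21.6% in rrc1-3 and 51.2% in Col-0 and the 3′ boundary 16.2% and 5.63%, so from the 3′ boundary alone the log2 odds were 1.69, the opposite of the sum. AT1G18210 shifted toward the 5′ boundary in both conditions, by 1.33 in the dark (edgeR, adjusted p = 0.00153) and by 1.46 in red light (edgeR, adjusted p = 1.68e-05). It overlaps AT1G18200, and reads of both genes cannot be told apart.

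**Figure D4:**
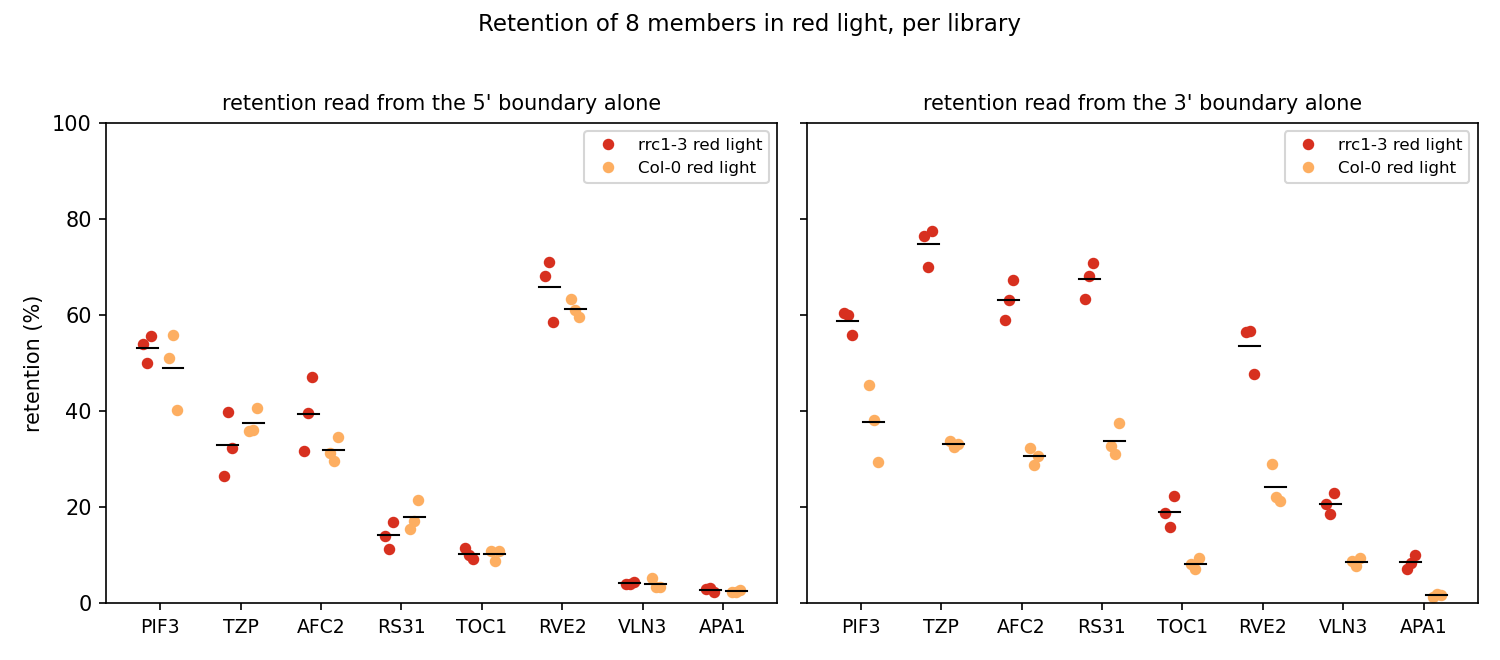
Retention in red light (percent, y axis) in each library, from the 5′ boundary alone and from the 3′ boundary alone, for 8 long introns in PIF3, TZP, AFC2, RS31, TOC1, RVE2, VLN3 and APA1. Points are libraries and black lines the means of 3. From the 3′ boundary the rrc1-3 mean lies above the Col-0 mean in each, as in TZP at 74.7% and 33.2%, while from the 5′ boundary TZP lies at 32.9% and 37.6%.

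Both genotype tables use separate libraries, so their directions can be set side by side. They shared 494 long introns, 43.1% of those in the dark table and 47.5% of those in the red light table. Of these 269 were higher in rrc1-3 in both conditions and 201 lower in both, so that 95.1% had the same sign, beside 87.0% of the 2376 shared features of all kinds. Of all listed features 358 in the dark and 351 in red light lacked a retention value in at least 1 library. Of long introns 0 and 1 did so. The part of such missing values in the lower share of 87.0% was not tested. Of the 494 shared long introns, 137 were called higher in both conditions (27.7%) and 84 lower in both (17%), beside 25.5% and 18.5% of the shared features of all kinds. None of the 494 was called in opposite directions, where 4 of all kinds were. In the 5′ UTR 167 of 197 were higher in both conditions, and between coding exons 88 of 256 were higher in both and 154 lower in both. Long introns listed in the dark alone were higher in rrc1-3 in 38.0% of 653, and those listed in red light alone in 67.6% of 547.

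**Figure D5:**
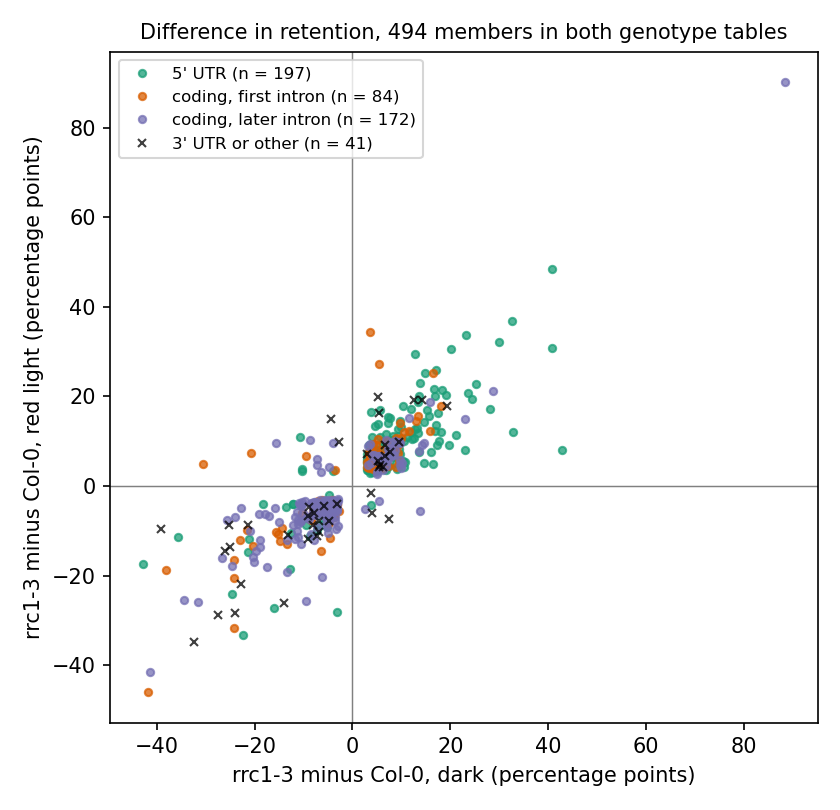
Difference in mean retention, rrc1-3 minus Col-0, in the dark (percentage points, x axis) and in red light (percentage points, y axis), for the 494 long introns listed in both genotype tables, coloured by place in the gene. Of these, 269 lie above 0 on both axes and 201 below 0 on both, and the RRC1 intron stands at 88.4 and 90.2 points.

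Signs differed between the conditions for 24 shared introns, 17 lower in the dark and higher in red light and 7 the reverse. The 4 with the most reads were in AT1G15240, AT2G02570, PCL1 and AT5G18310, and none of their differences was called. PCL1, the evening complex factor also called LUX, had means over 3 dark libraries of 23.4 ± 0.94% in rrc1-3 and 19.4 ± 1.9% in Col-0 (± SD; edgeR, adjusted p = 0.155), and in red light 21.2 ± 0.44% in rrc1-3 and 27.3 ± 0.50% in Col-0 (edgeR, adjusted p = 0.052). Its libraries did not overlap in either condition.

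The largest rises lay mostly in 5′ UTRs, and several rested on few reads. AT5G22040 was the only intron besides RRC1 among the largest rises of both tables. Its 5′ UTR intron was retained at 68.1%, 71.4% and 72.0% in rrc1-3 in the dark, against 13.4%, 34.0% and 42.1% in Col-0 (log2 odds 2.62 ± 0.57, edgeR, adjusted p = 0.00148). The red light values were 76.8%, 77.0% and 69.7% in rrc1-3, against 22.3%, 29.2% and 26.7% in Col-0 (log2 odds 3.04 ± 0.47, edgeR, adjusted p = 0.000128). In the dark AT1G77880, AT5G60570 and MS3, a methionine synthase gene, were also among them, with differences of 46.1, 32.7 and 38.6 points, and AT1G77880 and MS3 overlap a gene on the other strand. XTH5, a xyloglucan enzyme of the cell wall, had 44.0%, 36.0% and 79.3% in rrc1-3 and 11.5%, 8.33% and 17.4% in Col-0 in the dark (edgeR, adjusted p = 0.0116). This call was lost without rrc1-3 replicate 3 (log2 odds 2.16, edgeR, adjusted p = 0.0628). In red light the XTH5 intron was also higher in rrc1-3, by 30.8 points.

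In red light the largest rises also lay in AT1G52000, AT1G77270, AT3G45020 and AT5G61310, each in the 5′ UTR, with differences of 60.2, 47.0, 36.9 and 49.0 points. AT1G52000 had no spliced read in 2 rrc1-3 libraries and 28 in the third, with retention of 100%, 100% and 49.5% in rrc1-3, against 22.7%, 28.4% and 17.8% in Col-0. Without rrc1-3 replicate 3 its log2 odds were 9.12, against 3.65 ± 0.89 with all libraries (edgeR, adjusted p = 0.00389). AT3G45020 also varied among rrc1-3 libraries, with 38.9%, 73.3% and 20.9% in rrc1-3 and 6.45%, 9.09% and 7.02% in Col-0 (edgeR, adjusted p = 0.00208). In the dark this intron was also higher in rrc1-3, by 32.6 points.

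Among the falls, PUP1 and MAF5 were among the largest in both conditions. PUP1, a purine permease that also carries cytokinins, has a single intron of 1284 nt. It was retained at 48.9%, 42.9% and 53.7% in rrc1-3 in the dark, against 86.7%, 91.6% and 92.4% in Col-0 (log2 odds -3.28 ± 0.34, edgeR, adjusted p = 5.86e-07). In red light PUP1 stood at 38.3%, 40.5% and 23.9% in rrc1-3, against 75.4%, 84.8% and 80.5% in Col-0 (log2 odds -3.03 ± 0.37, edgeR, adjusted p = 1.31e-05). In the dark the PUP1 change was at the 3′ boundary, at 64.2% in rrc1-3 and 94.8% in Col-0, while the 5′ boundary gave 7.81% and 4.07% and log2 odds of 0.56. For the dark the authors' deposited table gave PUP1 14.3 FPKM in rrc1-3 and 30.9 FPKM in Col-0.

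MAF5, a MADS-box gene of flowering time, had coding intron 5 of 5 retained at 38.2%, 30.6% and 51.8% in rrc1-3 in the dark, against 85.9%, 74.8% and 84.3% in Col-0 (log2 odds -2.74 ± 0.53, edgeR, adjusted p = 0.000603). In red light MAF5 stood at 50.0%, 38.7% and 27.8% in rrc1-3, against 80.3%, 86.9% and 73.7% in Col-0 (edgeR, adjusted p = 0.00167). PPDK, pyruvate orthophosphate dikinase, had an intron among the 13 of the 5′ UTR that were called lower in red light, at 62.8%, 58.4% and 40.9% in rrc1-3 in red light, against 81.2%, 88.8% and 91.9% in Col-0 (log2 odds -2.55 ± 0.54, edgeR, adjusted p = 0.00141). The 3′ UTR intron of alpha-ADR, a clathrin adaptor subunit, was retained at 45.5%, 51.2% and 53.3% in rrc1-3 in red light, against 91.1%, 89.8% and 73.5% in Col-0 (edgeR, adjusted p = 0.000265). AT5G23155 and AT5G10130 also fell in red light, by 46.0 and 31.8 points, and in the dark AT1G29030, AT1G56660, AT1G67510 and AT3G56408 fell by 45.2, 42.9, 38.0 and 39.1 points. The AT1G56660 call was lost without rrc1-3 replicate 2 (edgeR, adjusted p = 0.0675) and without Col-0 replicate 1 (edgeR, adjusted p = 0.0604).

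The longest introns did not share a direction between genotypes. Of introns of 1000 nt or more, 41 of 75 were retained more in rrc1-3 in red light and 23 of 68 in the dark. Within rrc1-3, 26 of 29 of that length were higher in red light than in the dark. With unscaled odds 13 were called higher and 2 lower, beside 63.7% and 23.0% of all features. In either direction 51.7% of the 29 were called, a lower share than the 86.7% of all features. Intron 1 of AT1G58602, 7384 nt long and in the 5′ UTR, was retained at 8.08%, 7.17% and 14.5% in rrc1-3 in the dark, against 2.14%, 3.12% and 2.69% in Col-0 (log2 odds 2.00 ± 0.40, edgeR, adjusted p = 0.000766). Its red light values were 15.4%, 15% and 21.6% in rrc1-3, against 3.99%, 2.64% and 3.41% in Col-0 (log2 odds 2.60 ± 0.23, edgeR, adjusted p = 5.43e-07). Unlike in TZP, its boundaries moved alike, with the 5′ boundary at 20.2% in rrc1-3 and 3.79% in Col-0 and the 3′ boundary at 14.2% and 2.88% in red light. LpxC3, a gene of lipid A synthesis, had an intron of 5610 nt at 21.7%, 39.6% and 32.4% in rrc1-3 in the dark, against 52.1%, 65.9% and 51.1% in Col-0 (log2 odds -1.49 ± 0.29, edgeR, adjusted p = 0.000568). From its 3′ boundary alone the log2 odds were 0.65, the other way.

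Within rrc1-3, most calls were toward more retention in red light with unscaled odds, 93 of 117, and toward less with scaled odds, where 12 of 38 were higher. Of the 5′ UTR introns 43 of 48 (89.6%) were higher in red light than in the dark, and of the coding introns 76 of 100 (76.0%). Over all listed features 72.7% were higher (613 of 843, of which 13 lacked a retention value in at least 1 library). Plain introns under 300 nt were higher in 82.4% in the 5′ UTR and 70.2% between coding exons, so the coding share lay near these. With scaled odds 66.7% of the long 5′ UTR introns and 65% of the long coding introns were above 0. The median 5′ UTR intron was retained at 16.0%, 15.7% and 17.1% in red light, against 10.2%, 10.8% and 14.3% in the dark. The boundary test called 1 of 158, intron 2 of AT1G58602, against 0.62% of the 806 listed introns tested, with a median log2 ratio of 0.026. That call was toward the 5′ boundary (0.496% of introns tested), and 0 were toward the 3′ boundary (0.124%). That intron, 4420 nt long, was retained at 84.3%, 75.3% and 83.4% in red light, against 54.5%, 73.5% and 57.7% in the dark (log2 odds 1.41 ± 0.38, edgeR, adjusted p = 0.0036). The call of the boundary test was lost without red light replicate 1, 2 or 3 and without dark replicate 1 or 2. The 5′ boundary stood at 88.0% in red light and 69.2% in the dark.

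Single introns fell by far in red light. CDF1, the cycling DOF repressor of CONSTANS (AT5G62430), had its intron retained at 22.4%, 22.5% and 13.8% in red light, against 100%, 73.3% and 62.5% in the dark (log2 odds -3.73 ± 0.78, edgeR, adjusted p = 0.000944). The dark values rest on 0, 2 and 3 spliced reads. The authors' deposited table gave CDF1 5.52 FPKM in red light and 0.391 FPKM in the dark. ASY3, a protein of the meiotic chromosome axis, had 7.89%, 0% and 0% in red light, against 41.7%, 32.3% and 49.7% in the dark (log2 odds -4.81 ± 0.78, edgeR, adjusted p = 0.00014). A count of 0 in libraries 2 and 3 allows a retention of up to 6.67% and 6%, taking 3 reads as the limit and counting error only. SCL30A, a serine/arginine-rich protein, had 14.4%, 14.4% and 18.4% in red light, against 29.7%, 26.5% and 19.0% in the dark (log2 odds -0.82 ± 0.27, edgeR, adjusted p = 0.0118). AT5G41760 had 5.43%, 7.39% and 5.57% in red light and 11.1%, 10.6% and 100% in the dark, where the third library had no spliced read. Its log2 odds were -1.65 ± 0.74 with all libraries (edgeR, adjusted p = 0.0457), and the call was lost without red light replicate 1 (edgeR, adjusted p = 0.147).

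PRXQ, a plastid peroxiredoxin, rose, with 25.7%, 34.3% and 31.6% in red light, against 11.1%, 13.2% and 14.7% in the dark (log2 odds 1.56 ± 0.40, edgeR, adjusted p = 0.00294). AT2G12170 had 72.7%, 100% and 60.8% in red light and 11.5%, 18.0% and 30.9% in the dark (edgeR, adjusted p = 0.00248). AT5G17165 had 45.8%, 54.1% and 62.4% in red light and 25.0%, 24.1% and 44.4% in the dark (edgeR, adjusted p = 0.0136), a call lost without red light replicate 3 (edgeR, adjusted p = 0.058) and without dark replicate 2 (edgeR, adjusted p = 0.0618). ELF3 was lower in red light than in the dark by 0.65 ± 0.22 in log2 odds (edgeR, adjusted p = 0.0119), a call lost without dark replicate 3 (edgeR, adjusted p = 0.065).

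Across the 3 tables, 21 long introns were listed in all. Of these 14 were higher in rrc1-3 in the dark, higher in rrc1-3 in red light and higher in red light than in the dark within rrc1-3. The light response shares its rrc1-3 libraries with both genotype tables, so these signs are not independent. AS1, a MYB factor of leaf development, was among the 14, with a 5′ UTR intron whose red light means were 10.6 ± 1.1% in rrc1-3 and 3.71 ± 0.52% in Col-0, and whose dark means were 6.56 ± 0.74% in rrc1-3 and 3.13 ± 0.69% in Col-0 (SD, n = 3). Scaled, its light response within rrc1-3 was 0.17 in log2 odds (edgeR, adjusted p = 0.523). ZAT, a zinc transporter, had red light means of 23.6 ± 0.68% in rrc1-3 and 12.4 ± 1.4% in Col-0, and dark means of 19.7 ± 1.5% and 11.5 ± 1.8%. GLTP2, a glycolipid transfer protein, was lower in all 3, with dark means of 36.5 ± 2.5% in rrc1-3 and 46.7 ± 2.8% in Col-0, a call (edgeR, adjusted p = 0.0182) lost without rrc1-3 replicate 3 (edgeR, adjusted p = 0.0506) and without Col-0 replicate 1 (edgeR, adjusted p = 0.0815).

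In Col-0 itself few of the shared long introns were called between red light and dark, at a share near that of all features tested. An intron that was not called may still have changed. Features of this fit were listed on contrasts that share its libraries. In the fit over all 12 libraries 11 of the 494 shared long introns were called between red light and dark in Col-0, 3 higher and 8 lower, against 2.2% of the 2360 features tested. DESeq2 called 11 (1.95% of all features), and 63 had an unadjusted p under 0.05 (13.6%). The count was 7 without Col-0 dark replicate 2 and 6 without Col-0 red light replicate 3. CKX5, a cytokinin oxidase, had a last intron retained at 18.5%, 25.6% and 22.2% in Col-0 in red light, against 6.82%, 8.02% and 10.6% in Col-0 in the dark (log2 odds 1.63 ± 0.32, edgeR, adjusted p = 0.00368). In the dark it stood at 24.4%, 18.9% and 22.8% in rrc1-3, above Col-0 (log2 odds 1.6 ± 0.29, edgeR, adjusted p = 0.000296). KUP11, a potassium transporter, and AT3G56050 were higher in Col-0 in red light than in the dark, by 1.34 ± 0.27 (edgeR, adjusted p = 0.00431) and by 1.18 ± 0.23 in log2 odds (edgeR, adjusted p = 0.00368). AT2G02570 was lower by 1.05 ± 0.18 (edgeR, adjusted p = 0.000697) and RVE2 by 0.82 ± 0.18 (edgeR, adjusted p = 0.0113), the RVE2 call being lost without Col-0 red light replicate 3 (edgeR, adjusted p = 0.0803).

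The primary transcript of MIR156c, the source of a microRNA that holds plants in the juvenile phase, held 2 of these introns. Its intron at chr4:15413595-15414312 was retained at 33.5%, 31.9% and 34.2% in rrc1-3 in the dark, against 12.1%, 14.4% and 15.3% in Col-0 (log2 odds 1.62 ± 0.19, edgeR, adjusted p = 2.56e-06). In red light this intron stood at 25.0%, 27.2% and 28.1% in rrc1-3, against 9.32%, 8.85% and 8.35% in Col-0 (log2 odds 1.92 ± 0.15, edgeR, adjusted p = 1.34e-07). The intron at chr4:15414353-15415332 had 31.0%, 30.0% and 30.8% in rrc1-3 in red light, against 11.4%, 11.9% and 11.3% in Col-0. Both boundaries moved alike in each. In Col-0 they were lower in red light than in the dark, by 0.74 ± 0.16 (edgeR, adjusted p = 0.00899) and 0.72 ± 0.16 in log2 odds (edgeR, adjusted p = 0.0122). The first call was lost without Col-0 dark replicate 2 or 3 or red light replicate 3 (edgeR, adjusted p = 0.0582, 0.0675 and 0.0671), and the second without Col-0 dark replicate 1 or 2 or red light replicate 3 (edgeR, adjusted p = 0.0506, 0.0564 and 0.0702).

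The genotype difference was not shown to depend on light for any long intron. The test of the difference between the light responses of rrc1-3 and Col-0 called 0 of 494 in edgeR, where 0.0% of 2360 features were called, and the lowest adjusted p of a long intron was 0.363. At an unadjusted p under 0.05 it held 24 long introns, against 5.93% of all features, and DESeq2 called 0, against 0.127%. A missed threshold does not show that the genotypes respond alike, and with 3 libraries per group small differences were not detectable.

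The level of the host gene was set beside retention, and the shares for long introns lay near those for all listed features in the dark. The authors' deposited table for the dark listed 157 host genes of long introns with lower retention in rrc1-3, of which 120 had a higher FPKM in rrc1-3. Of 104 listed hosts of long introns with higher retention, the authors' deposited table gave a higher FPKM in rrc1-3 for 42. The same counts over all features were 425 of 586 and 212 of 509. In red light the authors' deposited table gave a higher FPKM in rrc1-3 for 57 of 68 hosts of introns with lower retention and 48 of 107 with higher retention, beside 223 of 297 and 182 of 403 over all features. Retention is a share of a gene's own reads, and the part of transcript level in it was not tested.

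The letters at the splice sites were counted in the reference. An intron starting with GTAAG, searched on the transcribed strand, made up 17.3% of the long introns in the dark table and 17.1% in the red light table. It was 20.5% and 19.9% in the 5′ UTR and 16.0% and 16.2% between coding exons. These letters began 21.3% of the introns called higher in rrc1-3 and 14.2% of those called lower in the dark, and 17.6% and 16.3% in red light. Within rrc1-3 they began 16.1% of the 93 called higher in red light and 29.2% of the 24 called lower. An intron ending with TGCAG made up 19.7% and 22.5% of long introns, beside 19.3% and 20.5% of plain introns under 300 nt. It made up 26.6% of those called higher in rrc1-3 and 13.9% of those called lower in the dark, and 25.7% and 18.6% in red light. Of the introns whose splice sites are printed, RRC1, RS31, TOC1 and FIP1[V] end with these letters, and TZP, PIF3, AFC2 and PUP1 do not.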

How the data were processed

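Seedling RNA of 12 libraries, 3 per group, was depleted of rRNA and prepared with commercial RNA extraction and library kits, per the labels' protocols. The submitters' processing notes name TopHat2, whose version is not given in the sources used here, and the TAIR10 build. Whether libraries were stranded is not given in the sources used here, so reads of overlapping genes may be shared. Genes were named, placed and given sequences from RefSeq TAIR10.1, in whose sequence 98.78% to 99.05% of the listed plain introns had GT as first and AG as last bases. Of the long introns, 97.47% to 99.04% matched an annotated intron, and the place is that in the longest annotated transcript that holds it.

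The splicing tables follow the layout that ASpli writes and give the count of reads per boundary (J1, J2) and splice junction (J3) and library, per the file headers. The authors also deposited each group's retention fraction, the log2 change, a signed difference (a score) and a p-value with its FDR. The columns X4 to X6 were taken as the second group's libraries 1 to 3, and the deposited fraction equalled that from the pooled counts for 100% of long introns. The expression tables have the layout of Cuffdiff, with 1 FPKM value per group over its libraries as deposited by the authors, for called genes only, so their depth is unknown.

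Retention was computed per library from the counts. Unspliced (J1 + J2) reads were tested against spliced (J3) reads by the quasi-likelihood test of edgeR 4.0.16 under R 4.3.3, with a term per library, giving the change in log2 odds. Benjamini-Hochberg adjustment ran over all listed features of a table, not over all introns of the genome. The light response of Col-0 and the difference of light responses came from 1 fit of the 12 libraries over the 2360 features that both genotype tables list with identical junctions. A call is an adjusted p under 0.05. The step was tested on simulated data. Tests of 1 boundary against the other, scaled odds (TMM factors for unspliced and spliced reads apart) and splits by place were added after the data were seen. DESeq2 1.42.0, a minimum of 20 reads, a minimum length of 500 nt, single boundaries and leaving out each library were alternatives.

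The introns and gene lists were chosen with earlier results of these data known. Named were RRC1, the 6 largest rises and falls per genotype table and 4 per light response among introns with at least 20 reads and libraries apart, up to 6 in all 3 tables, up to 4 with opposite signs, the 3 longest and up to 4 of each list. Members named for a boundary shift or a Col-0 light response were added after their values were seen. Symbols of the lists that matched no locus or more than 1 were left out. Libraries with the same replicate number correlated at -0.0323 to 0.0724 after group means were taken out, so numbers were not treated as pairs. Other steps ran in Python 3.11.15 with scipy 1.17.1 and pandas 2.3.3, and matplotlib 3.10.9 drew the figures.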

Additional observations from a re-analysis of the deposited data

How the results depend on the processing

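Of 118 results for named introns, 91 were called, 18 turned direction under at least 1 alternative and 53 lost the call under at least 1. Where the cause of a move is not given by fewer introns or fewer reads, the cause was not tested. Calls over the long introns numbered 592 in the dark, 573 in red light and 117 in the light response of rrc1-3. With 500 nt or more they were 228, 219 and 57, and fewer introns enter there. With J2 alone, the boundary at the higher coordinate, they were 381, 376 and 71, and with the 5′ boundary alone 313 (100 higher, 213 lower), 282 (148 and 134) and 68 (57 and 11). With the 3′ boundary alone they were 480 (301 and 179), 487 (398 and 89) and 83 (66 and 17), with DESeq2 467, 446 and 103, and with scaled odds 572, 558 and 38. Leaving out 1 library gave 447 to 513, 438 to 508 and 89 to 111, and the replicate block 585, 551 and 118. The light response of Col-0 gave 11 calls, 7 with J1 alone, 4 with J2 alone, 3 with the 5′ boundary alone, 13 with the replicate block and 6 to 13 without 1 library. The difference of light responses gave 0 under each alternative. The boundary test gave 85 in the dark, 139 with the replicate block and 26 to 68 without 1 library. For red light it gave 181, 194 with the replicate block and 99 to 178 without 1 library, and in the light response 1, 2 with the replicate block, 2 with scaled odds and 0 to 1 without 1 library. The share higher in rrc1-3 in the 5′ UTR in the dark was 81.6%, 67.0% from the 5′ boundary, 85.7% from the 3′ boundary and 86.9% where libraries do not overlap, and 79.5% to 82.2% without 1 library. In red light this share was 90.2%, 75.3% from the 5′ boundary and 93.4% where libraries do not overlap. Between coding exons it was 29.3% and 33% from the 3′ boundary in the dark. In red light the coding share was 49.5%, and it passed 50% from the 3′ boundary (53.7%), at 500 nt or more (59.1%) and where libraries do not overlap (53.9%). In the light response the shares at 500 nt or more were 95.7% in the 5′ UTR and 84.0% between coding exons.

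Single boundaries turned these log2 odds, each from the boundary with the other direction. In the dark they were 0.37 for GLTP2, 0.65 for LpxC3, 0.56 for PUP1, -0.74 for RS2Z33, -0.76 for VLN3, -0.38 for AFC2 and 1.69 for FIP1[V]. In red light they were 1.16 for LpxC3, -0.27 for AT2G02570, 1.13 for FPA, 0.72 for PCL1, 0.39 and 0.38 for AT3G56050, -0.42 for RS31, -0.81 for AT5G18310 and -0.26 for TZP, and in the light response of Col-0 -0.78 for AT3G56050. RS2Z33 ran from -0.082 to 0.71 without 1 library. Scaled odds turned the light response of ZAT (-0.25) and AT4G10080 (-0.13) in rrc1-3.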

Other observations

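Among the red light introns, 6 lay in the plastid genome, 5 of them retained more in rrc1-3. Another gene lay inside 24 long introns of the dark table, 19 of the red light table and 7 of the light response table. Of these 14, 12 and 7 were higher in rrc1-3 or in red light. Introns just inside the length limit, at 300 to 304 nt, were higher in rrc1-3 in 8 of 28 in the dark and 13 of 25 in red light, and those just outside, at 295 to 299 nt, in 9 of 27 and 15 of 19.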
